A study of Arabidopsis thaliana with 18 samples.

Results

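The comparison described here set bro1-1 mutant seedlings of Arabidopsis thaliana harvested 2 h after abscisic acid (ABA) against bro1-1 seedlings given a mock treatment, 3 libraries each, which is 6 of the 18 libraries of the series. The libraries were chosen by their titles, and all 32833 genes of each table entered the analysis. The series measured transcript abundance by RNA sequencing in WT (Col-0) and bro1-1 seedlings at mock and after 2 h and 4 h of ABA, with 3 libraries in each of the 6 groups. All seedlings were 2 weeks old and of the Columbia ecotype, were grown on Murashige and Skoog medium with sucrose, and were sequenced whole. The ABA groups received 100 µM ABA. bro1-1 is 1 Salk T-DNA insertion line of AtBro1 (AT1G73390), so the mutant groups stand on 1 allele, and the insertion was carried by the treated and the mock seedlings alike. The WT ABA 2 h and WT mock libraries and the bro1-1 ABA 4 h libraries are used below only to show where the 2 h response of bro1-1 differed.

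ABA is the hormone that plants make when water is short and in maturing seeds. In the core pathway, ABA binds soluble receptors of the PYR/PYL family, the receptor then blocks clade A protein phosphatases 2C (PP2C), and the SnRK2 kinases released from those phosphatases phosphorylate bZIP transcription factors of the ABF/ABI5 group. These factors bind ABA response elements (ABREs) in the promoters of genes for dehydrins, other protective proteins and enzymes of compatible solutes, and also in promoters of the pathway's own inhibitors. AtBro1 encodes a protein with a Bro1-like domain, a fold known from endosomal sorting proteins. The question behind the comparison was which transcripts respond to a short ABA treatment when AtBro1 is mutated.

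Summed expected counts were 16779885 to 17172954 in the ABA 2 h libraries and 15568034 to 16666465 in the mock libraries. Values below are CPM, counts divided by library sizes that were scaled by the trimmed mean of M-values (TMM), and a gene was called when edgeR's quasi-likelihood test gave a Benjamini-Hochberg adjusted p under 0.05 and the log2 fold change exceeded 1 in size. A pair of libraries stood apart within their groups. In mock replicate 3, 1245 tested genes lay over 2-fold from the mean of the other 2 mock libraries, against 236 and 384 genes for replicates 1 and 2. Its 30 nuclear photosynthesis genes summed to 64280 CPM, against 109900 and 111500 CPM in the other mock libraries, and 4 seed storage markers summed to 720.7 CPM, against 0.0568 and 0.294 CPM. In ABA 2 h replicate 1, 802 genes lay over 2-fold from the mean of the other 2, against 470 and 266, and its photosynthesis sum was 70800 CPM, against 111300 and 100200 CPM. Its 11 root markers summed to 2224 CPM, above 1372 and 1883 CPM in the other ABA libraries and 1746, 1350 and 1505 CPM at mock. In whole seedlings, fewer cells of a type and less RNA per cell cannot be told apart. With both libraries left out, 4029 genes were called (2592 higher and 1437 lower), and 3585 of the 4325 genes called from all 6 libraries were among them.

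Between ABA 2 h and mock, 4325 of 19756 tested genes were called, which is 21.9% of them. Of these, 2655 genes (13.4%) were higher and 1670 genes (8.45%) were lower after ABA. Counts of called genes in the lists below stand beside these shares. The genes with the largest increases among the more abundant transcripts were a regulator of anthocyanin pigment, a phosphatase of the ABA pathway, a chloroplast protectant and ubiquitin ligases. In 55.1% of the tested genes the 3 ABA and the 3 mock libraries did not overlap (28.4% above and 26.6% below mock), so non-overlap alone marks a gene only weakly. The largest decreases included an auxin response gene, an expansin and members of the ABA receptor family. The median log2 fold change of all tested genes was -0.04 with TMM factors. It was -0.188 with upper quartile factors and -0.197 with library size alone, so that the higher genes made up 61.4% of the calls with TMM factors, 51.3% with upper quartile factors (2336 higher and 2214 lower) and 50.6% with library size alone (2305 higher and 2253 lower). No call changed direction under any of these scalings.

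**Figure D1:**
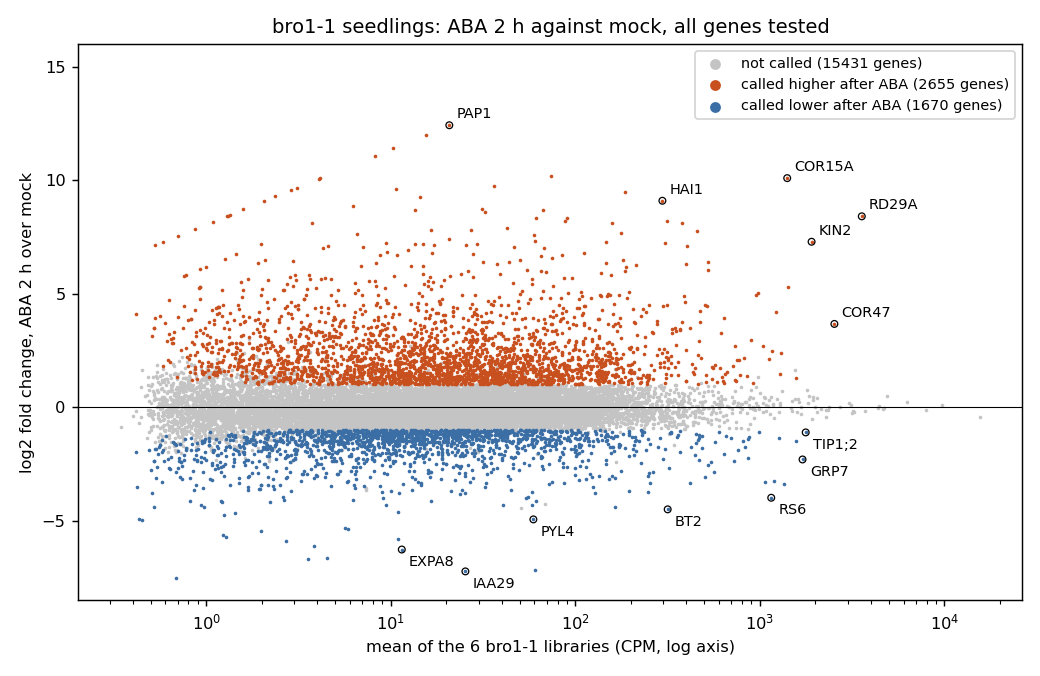
Log2 fold change (ABA 2 h over mock, bro1-1) of each tested gene on the y axis against its mean level over the 6 libraries in CPM on a log x axis. Points are coloured as called higher (2655 genes), called lower (1670) or not called (15431); the labelled COR15A, RD29A, KIN2 and HAI1 sit far above 0, while IAA29, EXPA8 and PYL4 sit far below it.

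COR15A (AT2G42540) encodes a chloroplast protein that protects membranes in frozen or drying tissue. It had 4150, 2665 and 1610 CPM after ABA, against 2.21, 4.3 and 1.01 CPM at mock (log2 fold change 10.09, standard error 0.716, adjusted p = 8.17e-05). PUB19, a U-box ubiquitin ligase that acts on ABA signalling, had 331, 404 and 383 CPM after ABA, against 0.625, 0.471 and 0.394 CPM at mock (log2 fold change 9.50, standard error 0.249, adjusted p = 8.72e-06). In both genes every ABA library lay far above every mock library. PAP1, the MYB regulator that turns on anthocyanin synthesis, was at 0 in all 3 mock libraries and had 61.8, 31 and 31.6 CPM after ABA, at least 241-fold above the floor of 3 counts per library. The glucosyltransferase gene UGT84A1, whose enzyme conjugates hydroxycinnamic acids, was also at 0 in every mock library and lay at least 181-fold above the floor after ABA (31.2 ± 10.3 CPM, SD, n = 3). AT5G61890, annotated as an integrase-type DNA-binding protein, was the other of the most increased genes with no mock counts (at least 119.7-fold). DIP2, annotated as an E3 ubiquitin ligase, had 6 counts in the 3 mock libraries together and was 1280-fold (95% counting interval 586 to 3480) higher after ABA, and the protein kinase gene AT5G24080 had 4 such counts and was 944-fold (95% counting interval 368 to 3470) higher. For AT5G05220 and the B-box gene BBX31, with 1 and 2 mock counts, the ratios were 1110-fold (95% counting interval 198 to 43700) and 752-fold (95% counting interval 208 to 6210); these intervals cover counting error only.

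Among genes with a mean of at least 10 CPM, those that fell most were led by IAA29, an Aux/IAA repressor of auxin responses, with 0.313, 0.198 and 0.478 CPM after ABA, against 60.8, 59.9 and 30.4 CPM at mock (log2 fold change -7.24, standard error 0.42, adjusted p = 3.67e-05). AT1G15125, annotated as an S-adenosyl-L-methionine-dependent methyltransferase, had 0.313, 1.12 and 1.08 CPM after ABA, against 92.9, 79.2 and 188 CPM at mock (log2 fold change -7.18, standard error 0.534, adjusted p = 9.95e-05). The groups did not overlap in either gene. BT2, a BTB and TAZ domain scaffold protein that responds to nutrients and hormones, had 45.8, 17.6 and 18.8 CPM after ABA, against 468, 648 and 700.2 CPM at mock (log2 fold change -4.50, standard error 0.43, adjusted p = 0.00025). BCAT-2, an aminotransferase of branched-chain amino acid breakdown, had a log2 fold change of -4.42, and AT5G02760, a phosphatase 2C gene, had -4.29. AT2G41990, annotated as a LEA protein, fell as well (-4.64), as did AT5G62280, of unknown function (-4.33). Of the genes that fell, the one with the highest mock level was GRP7, a glycine-rich RNA-binding protein under clock control, with 678, 483 and 592 CPM after ABA, against 2253, 2477 and 3729 CPM at mock (log2 fold change -2.30, standard error 0.288, adjusted p = 0.000815). AT3G15450, annotated as an aluminum induced protein, had 263, 223 and 238 CPM after ABA, against 2051, 2573 and 2748 CPM at mock (log2 fold change -3.38, standard error 0.233, adjusted p = 7.41e-05). AT1G20620, the catalase gene CAT3, was also among the most abundant genes called lower, with 338, 1079 and 1100 CPM after ABA, against 2289, 2045 and 2503 CPM at mock (log2 fold change -1.47, adjusted p = 0.0304). Its call was lost without mock replicate 1, 2 or 3 (adjusted p of 0.0511 to 0.0729) or ABA replicate 2 (-1.69 with adjusted p = 0.0507).

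AtBro1 itself is the targeted gene, and its transcript rose in the insertion line. It lies on chromosome 1 from 27590810 to 27595752 on the minus strand (TAIR10.1). Its counts cover the whole gene, so reads from before and after the insertion are not separated, and they do not check the label. By semi-quantitative RT-PCR and qRT-PCR, the paper reports that the homozygous line lacked AtBro1 transcript with and without ABA. A PCR product covers part of a transcript, so it and these counts are unlike measures, and the difference between them was not tested. AtBro1 had 197, 177 and 179 CPM after ABA, against 12.5, 10.5 and 11.1 CPM at mock (log2 fold change 3.99, standard error 0.148, adjusted p = 1.59e-05). Its mock level was 11.4 ± 1.03 CPM in bro1-1 and 15.5 ± 4.77 CPM in WT, and its ABA 2 h level was 184 ± 11.2 CPM in bro1-1 and 479.9 ± 65.6 CPM in WT (SD, n = 3 each). AT1G17940, another gene with a Bro1-like domain, rose as well (log2 fold change 4.33, adjusted p = 3.51e-05). The list also held genes of endosomal sorting, and its other 4 tested genes were not called. Its called share was 33.3%, beside 21.9% of all tested genes. ALIX, the Bro1-domain protein of endosomal sorting, had 85.4, 72.9 and 88.8 CPM after ABA, against 86.3, 79.2 and 89.2 CPM at mock. FREE1, a FYVE domain protein, and AMSH3, a deubiquitinating enzyme, had log2 fold changes of 0.30 and 0.45. BRAF, which has a Bro1-like domain, had at most 2 CPM in any library.

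Most of the tested ABA receptor genes fell. Of 14 PYR/PYL genes, 9 had enough counts to be tested, 6 of these were lower and 1 was higher, with a median log2 fold change of -2.37 beside -0.04 for all tested genes. The called share was 77.8%, beside 21.9% of all tested genes. PYL4 had 2.31, 3.04 and 5.98 CPM after ABA, against 105, 123 and 116 CPM at mock (log2 fold change -4.94, standard error 0.345, adjusted p = 7.93e-05). PYL5 had 6.32, 6.01 and 8.19 CPM after ABA, against 90.8, 97.6 and 122 CPM at mock (log2 fold change -3.95, standard error 0.2, adjusted p = 3.03e-05). For PYL6 the values were 0.125, 0.462 and 0.538 CPM after ABA, against 25.6, 21.8 and 16.7 CPM at mock (log2 fold change -5.83, standard error 0.388, adjusted p = 6.51e-05). Each of these receptors was low in all 3 ABA libraries. PYR1, after which the family is named, and PYL8, a receptor known from root responses, fell by less: PYR1 had 15.1, 18.3 and 20.7 CPM after ABA, against 132, 142 and 74.5 CPM at mock (log2 fold change -2.71, standard error 0.268, adjusted p = 0.000291), and PYL8 had a log2 fold change of -2.37 (adjusted p = 0.000224). PYL2 also passed the test (log2 fold change -1.54, adjusted p = 0.0232), at levels of 0.813 to 4.47 CPM, but not without ABA replicate 1 (-1.37 with adjusted p = 0.0744), ABA replicate 2 (-1.45 with adjusted p = 0.0745) or mock replicate 2 (-1.16 with adjusted p = 0.0849).

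PYL7 moved the other way from its relatives. It had 36.6, 60.5 and 38.5 CPM after ABA, against 17.1, 21.7 and 15.2 CPM at mock (log2 fold change 1.3, standard error 0.233, adjusted p = 0.00406), with no overlap between the groups. PYL9, a receptor gene of the same direction, had 13.9, 26.9 and 20.5 CPM after ABA, against 9.94, 9.3 and 13.5 CPM at mock, a log2 fold change of 0.87 that did not reach the fold threshold, and PYL1 had -0.44. PYL3, PYL10, PYL11, PYL12 and PYL13 were too low to be tested, with at most 0.598 CPM in any of the 6 libraries.

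All 8 tested clade A PP2C genes, which encode the phosphatases that hold the pathway off, rose, with a median log2 fold change of 4.72. The HAI genes, named as highly ABA-induced phosphatases, had the largest changes. HAI1 had 704, 622 and 448 CPM after ABA, against 0.625, 1.06 and 1.46 CPM at mock (log2 fold change 9.09, standard error 0.378, adjusted p = 1.67e-05). HAI2 had 154, 133 and 113 CPM after ABA, against 0.0568, 0.118 and 0.732 CPM at mock (log2 fold change 8.70, standard error 0.532, adjusted p = 4.62e-05). HAI3 had 61.2, 19 and 17.8 CPM after ABA, against 0, 0.118 and 0.282 CPM at mock (log2 fold change 7.82, standard error 0.833, adjusted p = 0.000405), and its ABA replicate 1 lay well above the other ABA libraries. ABI1 had 926, 899.5 and 836 CPM after ABA, against 54, 52.4 and 87.8 CPM at mock (log2 fold change 3.74, standard error 0.261, adjusted p = 7.82e-05), and PP2CA had 869, 787 and 614 CPM after ABA, against 24.7, 25.1 and 39.8 CPM at mock (log2 fold change 4.63, standard error 0.281, adjusted p = 4.43e-05). HAB1 had 627, 582 and 505 CPM after ABA, against 26.6, 25.3 and 25.6 CPM at mock (log2 fold change 4.44), ABI2 had a log2 fold change of 4.81 and HAB2 of 2.3. AHG1, a phosphatase known from seeds, was not tested, with 25 counts in the ABA libraries and 6 counts in the mock libraries.

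The SnRK2 kinases, which carry the signal on, did not move as a group. Of 10 genes, 1 was higher, 2 were lower and 7 were not called, with a median of -0.12. The called share was 30%, beside 21.9% of all tested genes. SnRK2.7 had 37.5, 26 and 19.2 CPM after ABA, against 0.909, 1 and 0.563 CPM at mock (log2 fold change 5.02, standard error 0.337, adjusted p = 6.86e-05). Among the 3 kinases that ABA activates most strongly, SnRK2.3 was lower (21.7, 21.1 and 28.9 CPM after ABA, against 52.2, 60.7 and 58 CPM at mock, log2 fold change -1.28, adjusted p = 0.000881). SnRK2.2 had a log2 fold change of -0.89 and SnRK2.6, the guard cell kinase OST1, of 0.92, both short of the fold threshold. SnRK2.2 was called lower with upper quartile factors or library size alone, and SnRK2.6 higher without ABA replicate 3. SnRK2.5 was lower (-1.73, adjusted p = 0.0298), with mock replicate 3 at 24.1 CPM and the other mock libraries at 9.31 and 6.3 CPM. Without mock replicate 3 its value was -0.95 with adjusted p = 0.0555. It was also lost without ABA replicate 1 (-1.50 with adjusted p = 0.0963), 2 (-1.92 with adjusted p = 0.0583) or 3 (-1.77 with adjusted p = 0.0756).

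Of the ABF/ABI5 bZIP genes, 4 of 8 tested were higher and none was lower, a called share of 50% beside 21.9% of all tested genes. ABF3 had 568, 466 and 412 CPM after ABA, against 22.7, 15.8 and 24.3 CPM at mock (log2 fold change 4.49, standard error 0.242, adjusted p = 3.45e-05), and ABF2 had 208, 188 and 164 CPM after ABA, against 12.9, 14.8 and 16.1 CPM at mock (log2 fold change 3.64, standard error 0.164, adjusted p = 2.38e-05). GBF3, a G-box binding factor, had a log2 fold change of 3.76, and ABI5, the factor of seed and early seedling ABA responses, had 22.8, 32.1 and 19.6 CPM after ABA, against 2.84, 3.24 and 6.25 CPM at mock (log2 fold change 2.56, standard error 0.338, adjusted p = 0.00107). ABF1 and ABF4 had log2 fold changes of 0.86 and 0.89 with no overlap between groups, below the fold threshold. The AFP genes, whose products bind ABI5 and repress its activity, were higher in 4 of 4 cases with a median of 3.53. AFP1 had 395, 384 and 297 CPM after ABA, against 2.95, 2.94 and 5.91 CPM at mock (log2 fold change 6.47, standard error 0.346, adjusted p = 3.35e-05), and AFP3, AFP2 and AFP4 had log2 fold changes of 4.13, 2.94 and 2.14.

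**Figure D2:**
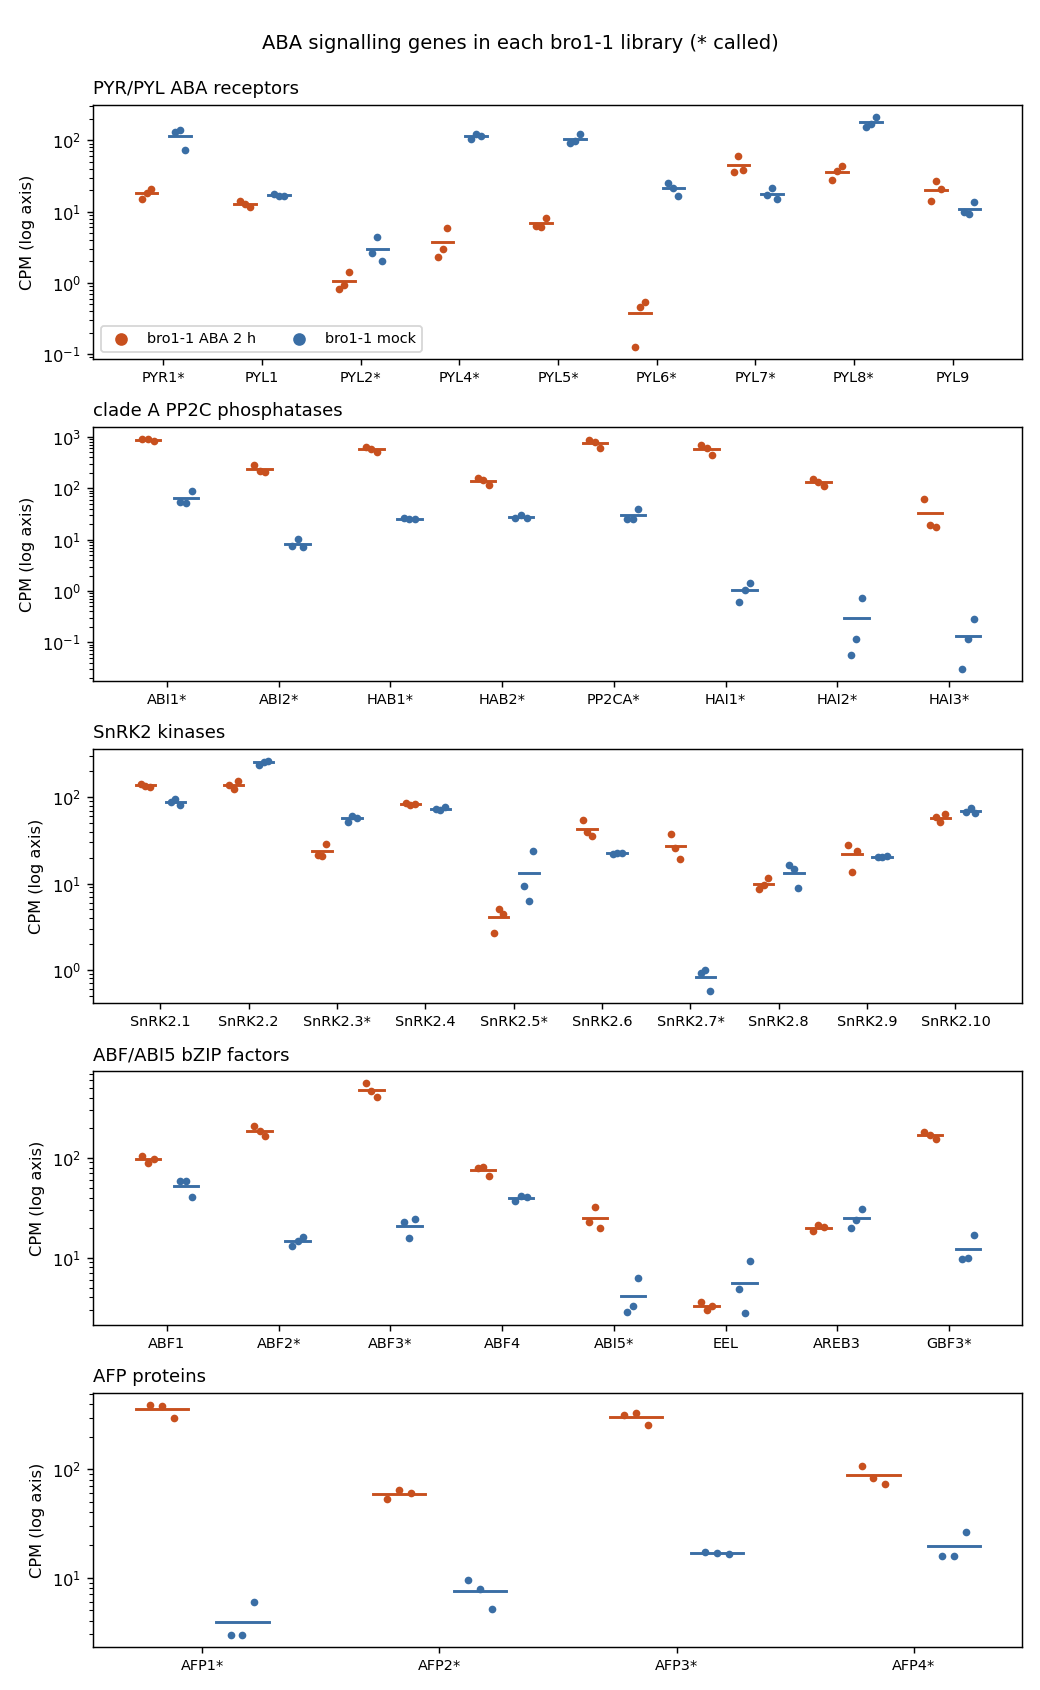
Level of each core ABA signalling gene in bro1-1, in CPM on a log y axis, with ABA 2 h libraries left of mock libraries for each gene. Points are the 3 libraries of each group, horizontal bars are their means, an asterisk marks a called gene, and the HAI3 mock library with 0 CPM is drawn at 0.03 CPM. Receptors such as PYL4 and PYL6 lie lower after ABA, and all 8 PP2C and 4 AFP genes lie higher.

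The promoters of the genes that rose held ABRE cores more often than other promoters. The window searched was 250 bases before to 50 bases after the annotated start of each gene, from the RefSeq annotation of TAIR10.1, and both strands were read for ACGTG (the ABRE core), CACGTG (the G-box, which contains the ABRE core), ACCGAC or GCCGAC (the DRE core bound by CBF and DREB factors), AATATCT (the evening element core) and AACCCTA (the telo box of ribosomal and cell cycle promoters). The windows below show, for 10 genes on which the account above or below turns, the last core within the 250 bases before the gene start. Cores at or after the start are not shown. Each window is 30 bases of the gene's own strand, 5′ to 3′, with the ABRE core or the G-box around it in capitals. CACGT in capitals is the core read on the other strand.
AtBro1, chr1:27595958-27595987, minus strand: agcaaatagtggACGTGggatgcttatgca
HAI2, chr1:2282829-2282858, minus strand: aaatgggcacgctttgtaACGTGtaacgat
HAI3, chr2:12608628-12608657, plus strand: agaatgcaagtaACGTGtaatgacattatt
PP2CA, chr3:3585870-3585899, minus strand: tgcccgttaattACGTGtaacccttccatg
AFP1, chr1:26038799-26038828, plus strand: ttcttttcttctACGTGcccaaaacccaac
AFP3, chr3:11384161-11384190, minus strand: ctgaacataagaCACGTGtacgatcttgtc
ABI5, chr2:15207708-15207737, minus strand: acacgtgcaggaCACGTGtcgtccgcagcc
RD29B, chr5:21236991-21237020, plus strand: ggacgaaacggacgcatcgtACGTGtcaga
RAB18, chr5:26519448-26519477, minus strand: gattgatatgaaCACGTacttggtatcgac
COR15A, chr2:17712341-17712370, minus strand: cgtcaataaataCACGTGaaggaaatgaga
The core began 12 bases before the annotated start in HAI2, 35 in HAI3, 37 in PP2CA and 223 in AtBro1. AFP3, ABI5 and COR15A held the core as a G-box.

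An ABRE core lay in the window of 1207 of 2655 genes called higher, which is 45.5% (95% Wilson interval 43.6 to 47.4%). The share was 24.1% (22.1 to 26.2%) in genes called lower, 25.7% (25 to 26.4%) in tested genes that were not called and 25.8% in all 32546 windows. It was 24.5% among genes with log2 fold changes between -0.5 and 0.5 and 63.9% (56.3 to 70.8%) among the 166 genes above 5. The G-box was found in 18.9% of genes called higher, 6.05% of genes called lower and 7.11% of all windows. The DRE core was found in 14%, 5.81% and 8.51%, and the evening element core in 14.1%, 13.3% and 11.2%. The telo box was less frequent in called genes of either direction, at 3.92% of those higher and 4.91% of those lower, against 8.64% of tested genes not called. Neighbouring genes can share a window, and a match says only that these letters are present.

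Among the listed groups, the core was in the window of 4 of 4 AFP genes, 10 of 12 tested LEA genes, 9 of 11 JAZ genes and 5 of 8 PP2C genes, and in 3 of 9 receptor genes. Some other lists with genes called higher held the core less often, at 2 of 11 HD-Zip class I genes, 1 of 5 heat stress factors and 2 of 18 aquaporins. The circadian clock genes had it in 10 of 11 windows, whether or not they were called. Several strongly changed genes had no ACGTG in this window, among them RD29A, HAI1, ABI1, P5CS1, NCED3 and, of the receptors that fell, PYL4, PYL5, PYL6 and PYL8, which says only that these letters are not within it.

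**Figure D3:**
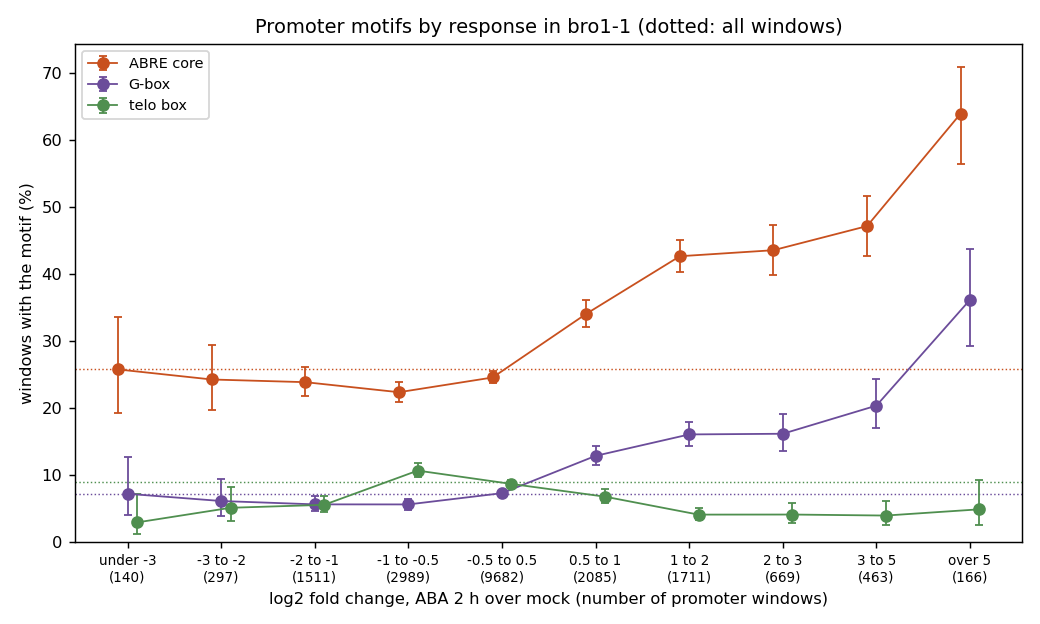
Share of promoter windows (percent, y axis) that hold an ABRE core, a G-box or a telo box, by bins of the log2 fold change of ABA 2 h over mock (x axis). Bars are 95% Wilson intervals and the dotted line of each motif is its share in all 32546 windows; the ABRE core share is 24.5% around 0 and 63.9% above 5.

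Genes of ABA metabolism rose on the side of synthesis and on the side of breakdown. Of 5 tested synthesis genes 3 were higher, and of 8 tested genes of breakdown, conjugation and transport 6 were higher. The called shares were 60% and 75%, beside 21.9% of all tested genes. NCED3, which cleaves the carotenoid precursor in the rate-limiting step of stress-induced ABA synthesis, had 32, 24 and 24.6 CPM after ABA, against 3.41, 2.41 and 1.29 CPM at mock (log2 fold change 3.46, standard error 0.324, adjusted p = 0.000226). AAO3, the aldehyde oxidase of the last step, had a log2 fold change of 1.91 (adjusted p = 0.000224). ABA1, zeaxanthin epoxidase, had 671, 889 and 797 CPM after ABA, against 255, 218 and 43.2 CPM at mock, with mock replicate 3 well below the others (log2 fold change 2.16, standard error 0.568, adjusted p = 0.0193). Without ABA replicate 2, ABA1 was at 2.07 with adjusted p = 0.0524.

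The ABA 8′-hydroxylases, which start ABA breakdown, were all higher. CYP707A2 had 147, 154 and 107 CPM after ABA, against 2.61, 2.06 and 1.75 CPM at mock (log2 fold change 5.95, standard error 0.238, adjusted p = 1.67e-05). CYP707A1 had 197, 90.6 and 100.2 CPM after ABA, against 3.41, 3.88 and 3.6 CPM at mock (log2 fold change 5.12, standard error 0.345, adjusted p = 6.99e-05), and CYP707A4 and CYP707A3 had log2 fold changes of 5.35 and 2.98. ABCG25, an exporter of ABA from the cells that make it, had a log2 fold change of 2.12. ABCG40, an ABA importer, had 3.56, 14.4 and 8.25 CPM after ABA, against 13.5, 4.71 and 15.4 CPM at mock, overlapping groups that were not called. BG1, the glucosidase that frees ABA from its glucose ester, passed with overlapping groups (1.27, adjusted p = 0.044). It lost the call without mock replicate 2 (1.26 with adjusted p = 0.107), mock replicate 3 (0.97 with adjusted p = 0.0675), ABA replicate 2 (1.16 with adjusted p = 0.113) or ABA replicate 3 (1.06 with adjusted p = 0.128). BG1 was also not called with upper quartile factors, library size alone or a replicate block.

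Genes of protective proteins rose. Late embryogenesis abundant (LEA) proteins and dehydrins are hydrophilic proteins of maturing seeds and drying tissue, and 10 of 12 tested genes were higher with a median log2 fold change of 4.88. LEA4-5 had 844, 594 and 429 CPM after ABA, against 0.681, 0.53 and 4.84 CPM at mock (log2 fold change 8.22, standard error 0.869, adjusted p = 0.000392). LTI30 had 1305, 973 and 822 CPM after ABA, against 17.8, 16.9 and 10.9 CPM at mock (log2 fold change 6.05, standard error 0.315, adjusted p = 3.03e-05). COR47 and ERD10, both acidic dehydrins, were abundant before the treatment as well: COR47 had 5587, 4450 and 4073 CPM after ABA, against 405, 338 and 342 CPM at mock (log2 fold change 3.67, standard error 0.266, adjusted p = 8.93e-05), and ERD10 had a log2 fold change of 5.28. RAB18, a dehydrin used as a reporter of ABA responses, had 572, 295 and 314 CPM after ABA, against 22, 21.7 and 45.4 CPM at mock (log2 fold change 3.69, standard error 0.406, adjusted p = 0.00046). EM6, a seed LEA gene, had 28.4, 14.8 and 12.7 CPM after ABA, and at mock it was at 0 in 2 libraries and at 0.338 CPM in replicate 3. EM1 and XERO1 were not called (adjusted p = 0.173 and 0.362). Mock replicate 3, which held the seed storage transcripts, had the highest mock level of both, and without it 12 of 12 LEA genes were called higher, with EM1 at 8.28 and XERO1 at 2.85. Whether seed material in that library set these values was not tested.

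All 13 RD29, COR, KIN and related genes were higher, with a median log2 fold change of 7.10. RD29A, the standard marker of drought and cold responses, had 7558, 7881 and 5889 CPM after ABA, against 32.8, 21.1 and 7.6 CPM at mock (log2 fold change 8.41, standard error 0.658, adjusted p = 0.000113). Its neighbour on chromosome 5, RD29B, had 420.2, 219 and 232 CPM after ABA, against 0.284, 0.765 and 4.34 CPM at mock (log2 fold change 7.29, standard error 0.852, adjusted p = 0.0006). KIN1 and KIN2, small proteins induced by cold and ABA, had log2 fold changes of 8.11 and 7.29; reads of such near-identical copies can be divided between them by the estimate. On the TPM scale, which corrects levels for gene length, KIN2 had 8030 ± 1819 TPM after ABA and 55.2 ± 21.3 TPM at mock, above RD29A with 3391 ± 422 TPM after ABA and 10.7 ± 6.36 TPM at mock (SD, n = 3 each). RD20, a caleosin of lipid droplets, had 865, 1021 and 854 CPM after ABA, against 6.3, 4.3 and 1.69 CPM at mock (log2 fold change 7.77, standard error 0.499, adjusted p = 5.67e-05). The smallest change of the list was that of COR413IM1, a chloroplast envelope protein, at 1.98.

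Genes of compatible solutes changed in both directions. P5CS1, the rate-limiting enzyme of stress-induced proline synthesis, had 1938, 1775 and 1968 CPM after ABA, against 61, 71.2 and 35.6 CPM at mock (log2 fold change 5.05, standard error 0.322, adjusted p = 5.66e-05), and PRODH1, which degrades proline, had 103, 65.1 and 61.1 CPM after ABA, against 613, 812 and 850.2 CPM at mock (log2 fold change -3.34, standard error 0.27, adjusted p = 0.000129). The other 4 proline genes were not called, and the called share was 33.3%, beside 21.9% of all tested genes. Of the galactinol and raffinose genes, 5 of 6 tested were higher and 1 was lower. GOLS2, a galactinol synthase of drought responses, had 66.1, 85.8 and 78.6 CPM after ABA, against 0.568, 1.12 and 2.14 CPM at mock (log2 fold change 5.87, standard error 0.388, adjusted p = 6.36e-05). RS5, raffinose synthase, had a log2 fold change of 3.50, while RS6, also known as DIN10 and annotated as a raffinose synthase, fell: it had 168, 86.8 and 162 CPM after ABA, against 2023, 2365 and 2104 CPM at mock (log2 fold change -3.99, standard error 0.319, adjusted p = 0.000122). Trehalose-phosphate phosphatases, which remove a sugar signal, were higher in 6 of 9 tested cases, with TPPJ at 3.71, TPPI at 3.50 and TPPE at 3.07.

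Transcription factor genes linked to water stress mostly rose. Of the NAC factors 8 of 9 were higher, among them ANAC019 with 364, 359 and 388 CPM after ABA, against 5.79, 3.36 and 6.03 CPM at mock (log2 fold change 6.16, standard error 0.271, adjusted p = 2.29e-05) and RD26 with a log2 fold change of 4.32. ORE1, a senescence factor, and ANAC055 had 1.62 and 1.18, and both lost the call without ABA replicate 1 (1.34 with adjusted p = 0.0918, and 0.93 with adjusted p = 0.0257). ORE1 also lost it without ABA replicate 2 (1.73 with adjusted p = 0.0539), mock replicate 1 (1.39 with adjusted p = 0.0963) or mock replicate 2 (1.3 with adjusted p = 0.0699), and with library size alone. Of 11 HD-Zip class I genes, 5 were higher and 1 was lower, a called share of 54.5% beside 21.9% of all tested genes. HB7 and HB12, which respond to water deficit, had log2 fold changes of 4.90 and 4.57, and HB6, a repressor of ABA responses, had 628, 702 and 624 CPM after ABA, against 246, 223 and 177 CPM at mock (log2 fold change 1.56, standard error 0.184, adjusted p = 0.000617). HB40 was called at 2.41 but not without mock replicate 2 (2.17 with adjusted p = 0.063) or ABA replicate 1 (2.06 with adjusted p = 0.0658). HB13 was lower at -1.04, against -0.87 with adjusted p = 0.00537 without mock replicate 3 and -0.97 with adjusted p = 0.0135 without ABA replicate 1, both short of the fold threshold.

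Stress MYB genes were higher in 6 of 7 cases. MYB102 had 54, 40.6 and 29.2 CPM after ABA, against 0.17, 0.471 and 0.0563 CPM at mock (log2 fold change 7.41, standard error 0.475, adjusted p = 5.67e-05), MYB96, an activator of cuticular wax genes, had a log2 fold change of 3.63, and MYB41, a regulator of the cuticle and of suberin, had 3 mock counts in all and was 158-fold (95% counting interval 53.6 to 767) higher. All 6 CBF and DREB2 genes, which bind the DRE, were higher. DREB2A had 60.6, 48.8 and 37.4 CPM after ABA, against 4.26, 3.94 and 6.2 CPM at mock (log2 fold change 3.31, standard error 0.25, adjusted p = 0.000101), and CBF3 had 17.3, 33.5 and 22.7 CPM after ABA, against 0.454, 0.118 and 0 CPM at mock (log2 fold change 6.92, standard error 0.617, adjusted p = 0.000188). The heat stress factor HSFA6B, which links ABA to heat tolerance, had 303, 126 and 112 CPM after ABA, against 0.341, 0.824 and 0.451 CPM at mock (log2 fold change 8.34, standard error 0.572, adjusted p = 7.32e-05), and 4 of 5 tested heat stress factors were higher. None of the 6 tested WRKY genes was higher, and WRKY70, a factor of salicylic acid defence, was lower (14.2, 15.6 and 25.1 CPM after ABA, against 47.8, 37.1 and 44.7 CPM at mock, log2 fold change -1.27, adjusted p = 0.00481). Mock replicate 3 had the highest mock level of WRKY18, WRKY33 and WRKY40, and without it 2 WRKY genes were called higher and 1 lower. Among the RAV factors, repressors with AP2 and B3 domains, TEM2 had 15.5, 14.3 and 12.7 CPM after ABA, against 109, 115 and 181 CPM at mock (log2 fold change -3.29, standard error 0.234, adjusted p = 8.29e-05), TEM1 was not called, and RAV1 had a log2 fold change of -0.90, just short of the fold threshold. The called share was 33.3% of the tested RAV genes and 16.7% of the tested WRKY genes, beside 21.9% of all tested genes.

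**Figure D4:**
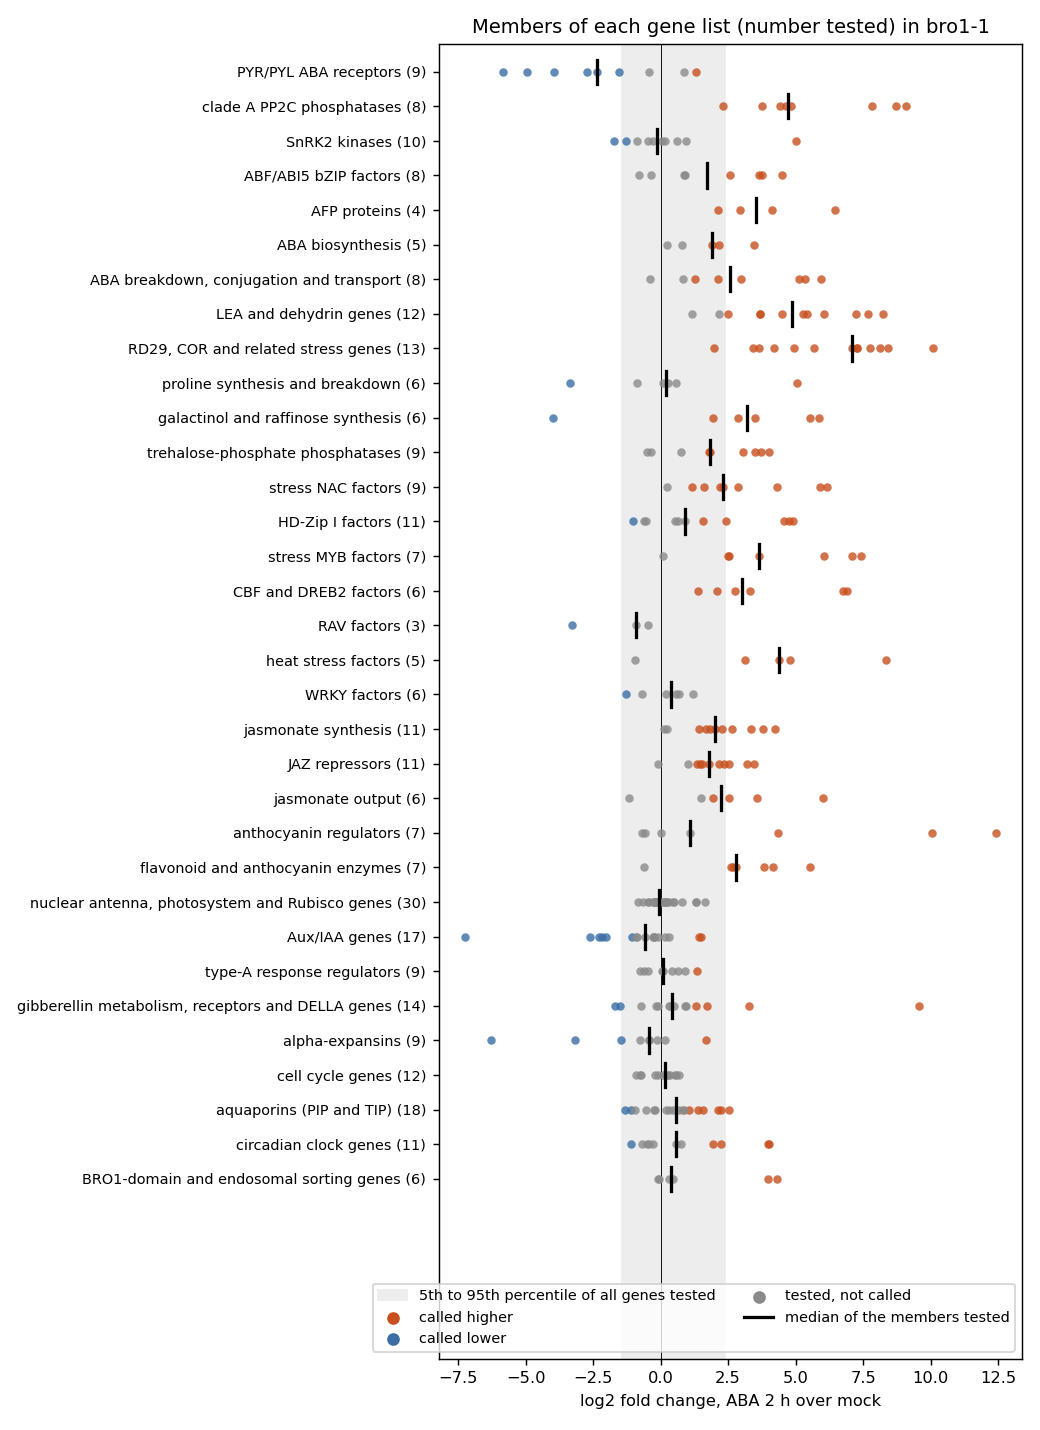
Log2 fold change (x axis, ABA 2 h over mock in bro1-1) of the tested members of 33 gene lists (y axis), 1 point per gene, coloured by call. The black tick of each list is its median and the grey band spans the 5th to 95th percentile of all tested genes; PP2C, AFP, LEA and RD29/COR genes lie above the band for the most part and the receptors below 0, while photosynthesis and cell cycle genes stay near 0.

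Genes of jasmonate, the hormone of wounding and of herbivore defence, rose with the ABA genes. Of the synthesis genes 9 of 11 were higher, with a median of 2.03. LOX2, the chloroplast lipoxygenase at the start of the route, had 915, 981 and 789 CPM after ABA, against 84.8, 38.1 and 16.2 CPM at mock (log2 fold change 4.24, standard error 0.573, adjusted p = 0.00118), and AOS, the enzyme after it, had 277, 371 and 276 CPM after ABA, against 36.1, 24 and 28 CPM at mock (log2 fold change 3.36, standard error 0.222, adjusted p = 6.36e-05). Mock libraries differed among themselves in LOX2, from 16.2 to 84.8 CPM, but stayed below every ABA library. The JAZ genes, whose products repress the pathway and are induced by it, were higher in 9 of 11 tested cases. JAZ1 had 243, 224 and 188 CPM after ABA, against 16.5, 10.2 and 31.1 CPM at mock (log2 fold change 3.47, standard error 0.394, adjusted p = 0.000529), JAZ9 and JAZ10 had log2 fold changes of 2.34 and 2.53, and JAZ11 stood just short of the fold threshold. JAZ7 was called at 1.53 (adjusted p = 0.0278) but not without mock replicate 1 (1.38 with adjusted p = 0.0887) or 2 (1.33 with adjusted p = 0.0836), nor without ABA replicate 1 (1.61 with adjusted p = 0.0548) or 2 (1.14 with adjusted p = 0.1). AOC3, an allene oxide cyclase of the synthesis list, had 1.82 and lost its call without mock replicate 1 (1.96 with adjusted p = 0.0526) or ABA replicate 2 (1.48 with adjusted p = 0.0743). Downstream, MYC2, the main activator, had a log2 fold change of 2.53, and the storage proteins VSP2 and VSP1 had 3.58 and 1.95. CORI3 had 518, 292 and 281 CPM after ABA, against 9.09, 3.77 and 3.77 CPM at mock (log2 fold change 6.0, standard error 0.47, adjusted p = 0.000113). PDF1.2A, the defensin of the joint ethylene and jasmonate branch, was below 4 CPM in every library and was not called.

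Of the pigment genes, 3 of 7 tested regulators and 6 of 7 tested enzymes were higher. The called shares were 42.9% and 85.7%, beside 21.9% of all tested genes. PAP2, a close relative of PAP1, was at 0 in the mock libraries and had 17.1, 6.34 and 1.08 CPM after ABA, at least 47.5-fold above the floor, with wide spread among the ABA libraries. TT8, the bHLH partner of these MYB factors, had 4.25, 3.77 and 4.31 CPM after ABA, against 0.227, 0 and 0.338 CPM at mock (log2 fold change 4.35, standard error 0.644, adjusted p = 0.00173). GL3, EGL3, TTG1 and the repressor MYBL2 were not called. Among the flavonoid enzymes, CHS, chalcone synthase at the entry of the pathway, had 116, 121 and 64.9 CPM after ABA, against 18.7, 22.2 and 2.2 CPM at mock (log2 fold change 2.78, standard error 0.689, adjusted p = 0.0155), F3H had a log2 fold change of 4.17 and FLS1, flavonol synthase, of 3.82. TT19, a glutathione transferase needed for anthocyanin transport, had 3 mock counts in all and was 52.5-fold (95% counting interval 17.6 to 258) higher. LDOX, a late enzyme, had 1.75, 1.12 and 2.15 CPM after ABA, against 0.284, 0.471 and 0 CPM at mock (log2 fold change 2.68, standard error 0.775, adjusted p = 0.0276), a call that was lost without ABA replicate 1 (2.66 with adjusted p = 0.0678), ABA replicate 3 (2.48 with adjusted p = 0.0864) or mock replicate 1 (2.78 with adjusted p = 0.0797). DFR, the enzyme before it, was too low to be tested at 2 h against mock, with at most 1.38 CPM.

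None of the 30 nuclear genes of antenna proteins, photosystems, Rubisco and chlorophyll synthesis was called, and their median log2 fold change was -0.07. Their levels moved with the libraries that stood apart: LHCB1.1 had 2317, 3740 and 3783 CPM after ABA, against 4381, 3928 and 616 CPM at mock, and RCA, Rubisco activase, had 3633, 6750 and 6853 CPM after ABA, against 5538, 5122 and 1505 CPM at mock. Mock replicate 3 was the lowest library in both. The LHCB2 antenna genes lay above mock in all 3 ABA libraries, with LHCB2.1 at 1886, 2716 and 2514 CPM after ABA, against 1103, 1002 and 128 CPM at mock, but did not pass (log2 fold change 1.64, standard error 0.674, adjusted p = 0.088). Without mock replicate 3, 1 of the 30 genes was called higher.

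Growth genes changed in part. Called genes made up 47.1% of the tested Aux/IAA genes and 44.4% of the alpha-expansins, beside 21.9% of all tested genes. Of 17 tested Aux/IAA genes 6 were lower and 2 were higher, with a median of -0.59. IAA19, an auxin-induced gene of elongating tissue, had 8.07, 5.62 and 6.04 CPM after ABA, against 39.9, 36.6 and 17.5 CPM at mock (log2 fold change -2.28, standard error 0.323, adjusted p = 0.00142), and IAA1, IAA4 and IAA2 had log2 fold changes of -2.61, -2.17 and -2.01. IAA17 was higher (1.49). IAA7, lower at -1.07, was at -0.72 with adjusted p = 0.00541 without mock replicate 3, and IAA28, higher at 1.41, lost its call in 5 of the 6 fits with 1 library left out, with adjusted p up to 0.112. IAA28 was also not called with library size alone. Expansins loosen cell walls during growth, and 3 of 9 alpha-expansins were lower while 1 was higher. EXPA8 had 0, 0.264 and 0.598 CPM after ABA, against 21.9, 21.1 and 24.9 CPM at mock (log2 fold change -6.27, standard error 0.542, adjusted p = 0.000168), and EXPA1 had 3.81, 8.79 and 14.3 CPM after ABA, against 81.3, 69.8 and 88.5 CPM at mock (log2 fold change -3.18, standard error 0.42, adjusted p = 0.00107). EXPA10 had 30, 69.7 and 58 CPM after ABA, against 17.6, 18.9 and 11.5 CPM at mock (log2 fold change 1.69, standard error 0.328, adjusted p = 0.00575), the reverse direction. EXPA15 was lower at -1.49, and at -1.31 with adjusted p = 0.0557 without ABA replicate 1.

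Gibberellin genes changed in both directions. GA2OX6, an oxidase that inactivates gibberellin, had 89.1, 71.4 and 55.2 CPM after ABA, against 8.23, 4 and 9.35 CPM at mock (log2 fold change 3.28, standard error 0.329, adjusted p = 0.000307), and GA2OX7 was at 0 at mock and had 1.94, 8.65 and 6.76 CPM after ABA, at least 33.6-fold above the floor. GA2OX2 and GA2OX8, oxidases of the same kind, were not called (0.30 and 0.90). GA20OX2, a synthesis enzyme, was lower (-1.69, adjusted p = 0.00792). The receptor gene GID1B was higher (1.73), and of the DELLA repressors GAI was lower, with 24.3, 22.2 and 22.5 CPM after ABA, against 58.8, 64.5 and 68.3 CPM at mock (log2 fold change -1.50, standard error 0.122, adjusted p = 0.000133), while RGL3 was higher (1.29) and RGA was not called (-0.16). GA3OX2, a synthesis enzyme too low to be tested, had 3, 0.33 and 0.957 CPM after ABA, against 0.17, 0 and 0 CPM at mock, or 69 against 3 counts in all, a ratio of 25.2-fold (95% counting interval 8.26 to 125). In all, 4 of 14 tested gibberellin genes were higher and 2 were lower, against 5 and 4 of 20 with DESeq2. Type-A response regulators of cytokinin signalling had 1 call in 9, ARR16 at 1.36, which was lost in 4 of 6 fits with 1 library left out (adjusted p up to 0.103). The called share was 42.9% for the gibberellin genes and 11.1% for the type-A regulators, beside 21.9% of all tested genes. None of 12 cell cycle genes was called. Their log2 fold changes spanned -0.93 for CYCD2;1, a D-type cyclin, to 0.67 for KRP2, a cyclin kinase inhibitor, and 1 of them was called lower with upper quartile factors or library size alone.

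Aquaporins, the water channels of the plasma membrane (PIP) and vacuole membrane (TIP), were split: 6 of 18 were higher and 2 were lower. The called share was 44.4%, beside 21.9% of all tested genes. PIP2;1 had 1613, 2099 and 1755 CPM after ABA, against 455, 452 and 330 CPM at mock (log2 fold change 2.11, standard error 0.232, adjusted p = 0.00046), PIP1;4 had 486, 600.5 and 446 CPM after ABA, against 114, 123 and 85.5 CPM at mock (log2 fold change 2.22, standard error 0.207, adjusted p = 0.000225), and PIP2;3 had a log2 fold change of 2.52. PIP2 genes are close in sequence, so the division of reads among them is an estimate. In the vacuole membrane TIP2;2 was higher (1.37), while TIP1;2 and TIP2;1 were lower. TIP1;2 had 949, 1136 and 1324 CPM after ABA, against 2048, 2385 and 2782 CPM at mock (log2 fold change -1.11, standard error 0.244, adjusted p = 0.00951), and TIP2;1 had 395, 451 and 679 CPM after ABA, against 858, 1196 and 1670 CPM at mock (log2 fold change -1.32, standard error 0.321, adjusted p = 0.0145). The groups did not overlap in either gene, but without ABA replicate 1 neither was called (TIP1;2 -0.99 with adjusted p = 0.0302, TIP2;1 -1.16 with adjusted p = 0.0502). TIP1;2 also lost its call without mock replicate 3 (-0.98), TIP2;1 without ABA replicate 2 (-1.24 with adjusted p = 0.057), and TIP1;1, called higher at 1.06, without mock replicate 2 (0.96) or ABA replicate 2 (0.86). With upper quartile factors or library size alone, TIP1;1 was not called either.

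Among 11 circadian clock genes 4 were higher and 1 was lower, a called share of 45.5% beside 21.9% of all tested genes. CCA1 and LHY, the morning MYB factors, had 111, 171 and 143 CPM after ABA, against 11.5, 13.5 and 1.41 CPM at mock (log2 fold change 3.98, standard error 0.672, adjusted p = 0.00307) and 19.6, 31.5 and 33.8 CPM after ABA, against 7.89, 8.3 and 1.35 CPM at mock (log2 fold change 2.25, standard error 0.56, adjusted p = 0.0158). PRR9, a morning repressor, had 35.8, 70.8 and 68.2 CPM after ABA, against 6.53, 3.41 and 0.563 CPM at mock (log2 fold change 4.03, standard error 0.669, adjusted p = 0.00289), and RVE8, an activator, had a log2 fold change of 1.94. Mock replicate 3 was the lowest library in all 4 genes. The evening genes TOC1, GI and LUX were not called, and ELF3 was lower at -1.09, against -0.96 without mock replicate 3, short of the fold threshold. The sources used here do not give the hour at which mock seedlings were harvested. Time of day and ABA therefore cannot be told apart for these genes, nor for the other genes called between ABA 2 h and mock.

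Markers of cell types were measured beside these changes. The 5 guard cell markers summed to 53.2, 64.8 and 73.7 CPM after ABA, against 129.5, 113.1 and 69.1 CPM at mock. MYB60, a guard cell factor, was lower with 4.19, 6.74 and 9.51 CPM after ABA, against 22.7, 21.6 and 13.8 CPM at mock (log2 fold change -1.53, standard error 0.323, adjusted p = 0.00809), FAMA, the factor of guard cell fate, had a log2 fold change of -1.18 but only -0.98 without ABA replicate 1, and the ion channel gene SLAC1 had 0.02. The 5 leaf markers summed to 16620, 27230 and 25880 CPM after ABA and to 24160, 23410 and 8298 CPM at mock, and none of the 10 tested root markers was called. Flower and pollen markers summed to at most 0.538 CPM after ABA and 0.225 CPM at mock, with 3 of 5 at 0 in every mock library. Whether the share of guard cells moved with any result was not tested.

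The same contrast in WT was set beside that in bro1-1 in 1 fit over 12 libraries, with a test of the difference between the genotypes. The WT mock libraries also differed among themselves. Their 30 nuclear photosynthesis genes summed to 40560, 91910 and 107900 CPM, and their leaf markers to 6283, 21880 and 23480 CPM. The lowest correlation of log2 CPM between replicates was 0.9228 in WT mock and 0.9441 in bro1-1 mock. Each WT log2 fold change below rests on this WT mock group. None of 20330 tested genes differed after adjustment in edgeR's quasi-likelihood test (0%), 1041 genes (5.12%) had an unadjusted p under 0.05, and DESeq2 called 15 genes, 2 with a higher and 13 with a lower log2 fold change in bro1-1. The 3 genes with the smallest p in edgeR were ESE3, an ERF factor, AT4G32340, a tetratricopeptide repeat protein, and AT1G23390, a Kelch repeat F-box protein. For ESE3 the log2 fold change was -2.59 ± 0.203 in bro1-1 and -0.74 ± 0.185 in WT (standard errors; difference -1.84, standard error 0.271, unadjusted p = 2.3e-05, adjusted p = 0.338). RAV1 followed, with -0.87 ± 0.204 in bro1-1 and 0.88 ± 0.203 in WT (difference -1.75, standard error 0.288, unadjusted p = 6.6e-05, adjusted p = 0.338), and its relative TEM2 had -3.25 ± 0.502 in bro1-1 and -0.93 ± 0.461 in WT (difference -2.32, standard error 0.659, unadjusted p = 0.0045, adjusted p = 0.909). WRKY70 had -1.24 ± 0.257 in bro1-1 and 0.23 ± 0.254 in WT (difference -1.46, standard error 0.361, unadjusted p = 0.0017, adjusted p = 0.909). In each of these the value was lower in bro1-1 than in WT, and in none did the edgeR difference pass after adjustment. RAV1 and ESE3 were among the 15 genes of DESeq2, with adjusted p = 0.000142 for each. In edgeR's test each of these 15 genes had an adjusted p of 0.338 or 0.909. The 15 calls therefore rest on DESeq2 alone, and which of them would hold in further libraries was not tested.

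For the core pathway both genotypes had values of the same sign in every called gene. AtBro1 had 4.02 ± 0.224 in bro1-1 and 4.94 ± 0.233 in WT (difference -0.92, standard error 0.283, unadjusted p = 0.0071, adjusted p = 0.909). PYL4 had -4.92 ± 0.285 in bro1-1 and -5.94 ± 0.303 in WT (difference 1.03, standard error 0.368, unadjusted p = 0.017, adjusted p = 0.909). HAI1 had 9.13 ± 0.466 in bro1-1 and 8.46 ± 0.45 in WT (difference 0.67, standard error 0.52, unadjusted p = 0.22, adjusted p = 0.923), and ABF3 had 4.52 ± 0.212 in bro1-1 and 4.13 ± 0.208 in WT (difference 0.39, standard error 0.26, unadjusted p = 0.16, adjusted p = 0.923). The median log2 fold change of the tested PP2C genes in WT was 4.84, and that of the receptors was -1.83. A p that misses the threshold does not show that the genotypes responded alike.

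A later time was available for bro1-1, at 4 h, which shares the 2 h libraries with the comparison above. Between 4 h and 2 h, 211 of 19815 genes (1.06%) were called, 111 higher (0.56%) and 100 lower (0.505%). This count rested on single libraries: it was 0 without ABA 2 h replicate 2 or 3, 3 without ABA 4 h replicate 1, 67 and 79 without ABA 4 h replicates 2 and 3, and 355 without ABA 2 h replicate 1. The genes of the smallest p were CSLA10, a glucomannan synthase (log2 fold change 2.89, adjusted p = 0.00531), CYP76C2 (log2 fold change 2.19, adjusted p = 0.0144) and XTH4 (log2 fold change -1.90, adjusted p = 0.0144). RAB18 averaged 29.7 ± 13.6 CPM at mock, 394 ± 154 CPM at 2 h and 1163 ± 91.5 CPM at 4 h (SD, n = 3 each; 4 h against 2 h, log2 fold change 1.52, adjusted p = 0.0479). LDOX and DFR, late anthocyanin enzymes, were near 0 at 2 h and higher at 4 h: LDOX averaged 0.252 ± 0.237 CPM at mock, 1.68 ± 0.519 CPM at 2 h and 29.5 ± 13.2 CPM at 4 h (log2 fold change 4.08, adjusted p = 0.0144), and DFR averaged 0.194 ± 0.191, 0.968 ± 0.424 and 27.8 ± 11.4 CPM (log2 fold change 4.77, adjusted p = 0.0144). TT19, UF3GT, an anthocyanin glucosyltransferase, VSP1, VSP2, LTP4, a lipid transfer protein, and ABCG40 were also higher at 4 h.

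Other genes had their highest level at 2 h. GOLS3, a galactinol synthase known from cold responses, averaged 0.305 ± 0.291 CPM at mock, 14.9 ± 11.2 CPM at 2 h and 1 ± 0.305 CPM at 4 h (log2 fold change -3.94, adjusted p = 0.0294). LHY averaged 5.85 ± 3.9 CPM at mock, 28.3 ± 7.63 CPM at 2 h and 5.12 ± 1.91 CPM at 4 h (log2 fold change -2.51, adjusted p = 0.0211), and CCA1 and RVE8 were lower at 4 h as well. RS5, IAA3, IAA7 and TIP2;1 were the remaining listed genes called lower at 4 h than at 2 h. Of these, IAA7 and TIP2;1 had been called lower at 2 h than at mock, so their highest level was not at 2 h. IAA3 was not called between 2 h and mock. None of the listed receptor, PP2C, SnRK2, bZIP or AFP genes was called between 4 h and 2 h, where 1.06% of all tested genes were called. At that share short lists can easily hold no call, so this does not show that these genes kept their level.

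**Figure D5:**
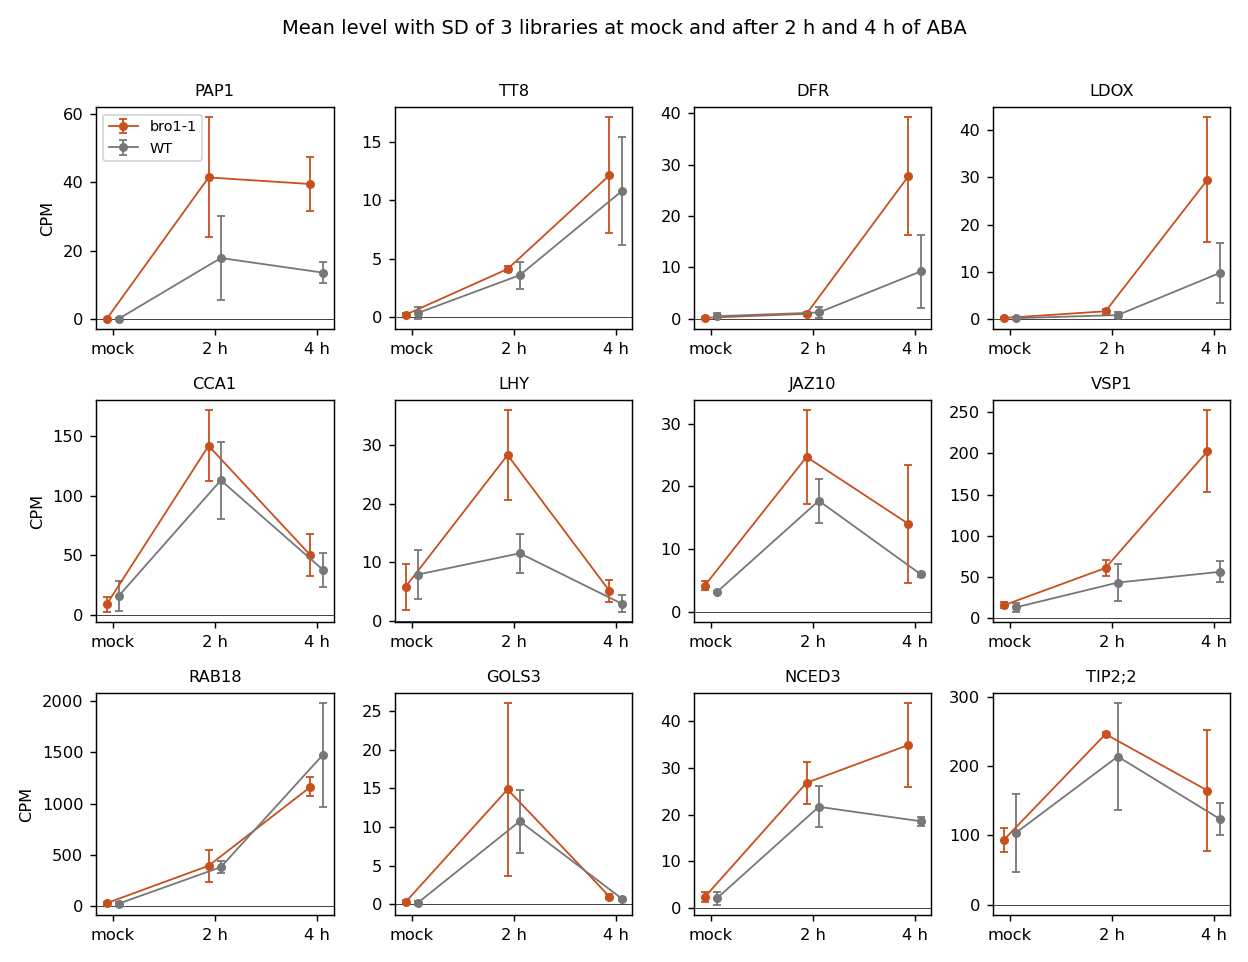
Mean level in CPM (y axis) of 12 genes at mock, 2 h and 4 h of ABA (x axis), for bro1-1 and WT; points are means and bars SD of 3 libraries. LDOX and DFR are near 0 at 2 h and higher at 4 h in bro1-1, while GOLS3 and LHY are highest at 2 h.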

How the data were processed

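Per the labels, the authors quantified reads with RSEM 1.2.30 over Bowtie2 2.3.5.1 and deposited expected counts (estimated counts per gene) and TPM; the genome build, annotation and strand setting are not given in the sources used here. Expected counts were rounded and tested with edgeR 4.0.16 (R 4.3.3, limma 3.58.1): filterByExpr, TMM factors, glmQLFit and glmQLFTest, with Benjamini-Hochberg adjustment over all genes tested. Calls required more than a log2 fold change of 1 in either direction and an adjusted p below 0.05. The standard error is the absolute log2 fold change divided by the square root of F. CPM used TMM factors over all 18 libraries; deposited TPM served only to compare levels between genes. Per the labels the replicates were independent biological ones.

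The main fit held the 6 bro1-1 libraries, the genotype test 12 and the test of 4 h against 2 h 6. Members, gene lists and tests were chosen with earlier results of these data known. Named genes were the listed members, the 10 largest changes per direction with a mean of at least 10 CPM, the 5 called genes of highest level per direction and the 3 smallest p of the other comparisons. The floor was 3 counts per library, 0.188 CPM after ABA and 0.172 CPM at mock on average.

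Of 32833 genes, 32548 matched TAIR10.1 (RefSeq) by locus tag and gave symbols, coordinates and 32546 promoter windows. Alternatives were DESeq2 1.42.0, other scalings and filters, a replicate block, glmTreat, no fold threshold, nuclear genes alone, all 18 libraries in 1 fit and each library left out; leaving out both libraries that stand apart was chosen after seeing the data.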

Additional observations from a re-analysis of the deposited data

How the results depend on the processing

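For ABA 2 h against mock, 4325 genes were called (2655 higher and 1670 lower); 2002 (1459 and 543) passed glmTreat against a log2 fold change of 1, and 7898 (4090 and 3808) passed with no fold threshold. With 1 library left out the count ran from 3728 to 4373 (2301 to 2792 higher, 1425 to 1633 lower). It was 4669 with DESeq2, 4428 with no filter, 4338 with relative log expression factors, 4503 with all 18 libraries in 1 fit and 4326 with nuclear genes alone. A replicate block gave 4217, 0 for the difference between genotypes and 2 (2 higher, 0 lower) for 4 h against 2 h. Deviations of same-numbered samples correlated at -0.0421, 0.335 and 0.0402 for ABA 2 h and mock, at -0.447, -0.197 and -0.165 for 4 h and 2 h, and between -0.312 and 0.511 over the groups of the genotype test; the labels name no shared origin, so the numbers were not taken as pairs. For 4 h against 2 h, DESeq2 called 691 (415 and 276), no filter gave 316 (170 higher), and leaving out 1 library gave 0 to 355 (0 to 247 higher, 0 to 108 lower). For the genotype difference DESeq2 called 15 (2 higher, 13 lower), and every fit of edgeR with 1 library left out called 0. With DESeq2's calls, 7.12% of windows of genes not called held a G-box (7.64% with edgeR's) and 8.8% a DRE core (9.55%). Of 348 named genes tested, 188 were called and 149 of these kept the call in every setting tried. The seed storage gene CRA1 changed sign, at -4.44 (adjusted p = 0.163) in all 6 libraries and 6.12 with adjusted p = 0.0322 without mock replicate 3 (-6.0 to 6.12 over all libraries left out in turn). The cause was not tested. Depth limits genes near the floor of 3 counts, such as the receptors PYL10 to PYL13 and late pigment enzymes.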

Other observations

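Further gene families were counted in the same test; they were chosen after their values were seen, so their counts are a description beside the 21.9% of all tested genes that were called. Of 55 SAUR-like genes, small proteins of auxin-driven elongation, 25 were lower and 6 were higher (median log2 fold change -1.59). AT4G34770 averaged 0.102 ± 0.123 CPM after ABA and 7.56 ± 1.99 CPM at mock (SD, n = 3 each), while AT5G53590 averaged 39.6 ± 11.3 CPM after ABA and 5.22 ± 0.65 CPM at mock (log2 fold change 2.89). Of 8 DIN genes, which darkness and low sugar induce, 6 were lower and none was higher. DIN2 and DIN9 pointed the other way but were not called, at 1.56 (adjusted p = 0.0517) and 0.87 (adjusted p = 0.0554), with overlapping groups. DIN1 (AT4G35770) averaged 198 ± 79.9 CPM after ABA and 1927 ± 264 CPM at mock (-3.31), and ASN1 (DIN6), an asparagine synthetase, averaged 387 ± 194 CPM after ABA and 1270 ± 523 CPM at mock (-1.74).

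Of 20 B-box zinc finger genes, factors of light signalling, 9 were higher and 5 were lower. BBX30 was at 0 in every mock library and at 16.3 ± 4.35 CPM after ABA, at least 94.9-fold above the floor, BBX32 had a log2 fold change of 5.57, and BBX17 and BBX14 had -3.83 and -3.02. UDP-glycosyltransferases, which attach sugars to hormones and phenolics, were higher in 48 and lower in 8 of 112 cases. Glutathione S-transferases were higher in 16 and lower in 3 of 39, with GSTU5 at 456 ± 142 CPM after ABA and 24.6 ± 13.3 CPM at mock. In contrast, 8 of 314 ribosomal protein genes (2.55%) and 6 of 239 pentatricopeptide repeat genes (2.51%) were called, with medians of -0.38 and -0.23, while the median of all genes was -0.04.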
